A study of Mus musculus with 2 samples.

Results

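The genes examined are the nuclear-coded subunits of the mitochondrial respiratory chain and of ATP synthase. They were chosen by symbol alone, as the genes named Nduf followed by a, b, c, s or v and a digit, Sdha to Sdhd, Uqcr, Cox4 to Cox8, and Atp5, leaving out symbols with -ps. This gave 84 of the 24091 genes in the table, namely 37 for complex I, 4 for complex II, 8 for complex III, 18 for complex IV, and 17 for complex V. RNA sequencing was done on 1 library labelled no radiation and 1 labelled radiation, both described as primary adipocytes of C57BL/6 mice. The irradiated mice received pelvic radiation given in the labels as 7.5 Gy and 5 days, which does not tell if each day or the whole course amounted to that dose, and the other mice were sham irradiated. In both groups, gonadal fat was collected 2 months later and digested with collagenase, and the floating cells were cultured for 3 days. Both sample titles also name PBS, without saying what was given in it. The number, sex, and age of the mice behind each library are not stated in the labels. With 1 library per condition no replicate check and no test between the conditions could be made, so no p-value is given. The libraries are called the sham library and the irradiated library.

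The respiratory chain passes electrons from NADH through complex I, or from succinate through complex II, to ubiquinone. Complex III then passes them to cytochrome c and complex IV to oxygen. Complexes I, III, and IV pump protons out of the mitochondrial matrix, and complex V lets them back in to make ATP. Complex II is coded wholly in the nucleus, whereas the other complexes combine nuclear-coded subunits with subunits coded in mitochondrial DNA, so that each needs its parts in proportion. In fat, the chain supports lipid handling in white adipocytes and heat production in brown adipocytes. The mitochondrially coded subunits were not analysed here.

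Levels are given as FPKM, the fragments per kilobase of listed gene length per 1000000 fragments, which allows genes of different length to be compared. A difference is the deposited log2(FPKM + 0.1) value of the irradiated library less that of the sham library. The deposited values were rounded to 2 decimals, so a difference is known only to within 0.01. The library totals, recovered from the steps of the values, were 30575000 fragments in the sham library and 34999000 in the irradiated library. The 84 genes took 0.563% and 0.561% of them, respectively. Counting intervals are exact 95% binomial (Clopper-Pearson) intervals of the ratio of the recovered fragments on the log2 scale without the added 0.1. They cover counting error only, not the spread between mice or cultures. Genes that reached an FPKM of 1 in either library were kept, which left 79 of the 84 genes and 11253 genes of the whole table.

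Most markers of the labelled cell type were low. Adipoq, which codes for adiponectin, stood at 0.133 FPKM in the sham library and 0.232 in the irradiated library, and Plin1, the perilipin of mature lipid droplets, had 0.254 and 0.478. Of 8 mature adipocyte markers, 3 were kept. The other 5, which include Lep, Cidec, and Lipe, stayed below 1 FPKM in both libraries. Fabp4, a fatty acid binding protein, had 96.9 FPKM in both libraries, Pnpla2, a lipase, 5.11 and 5.76 FPKM, and Pparg, the regulator of fat cell formation, 4.59 and 4.69 FPKM. Of 7 brown or beige adipocyte markers, 0 were kept, and Ucp1, the brown fat uncoupling protein, had 0 fragments in both libraries. The fibroblast gene Col1a1 reached 1937 and 1428. The libraries also differed in markers of other cells, with medians of 0.485 for 8 macrophage genes, 1.255 for 8 mesothelial genes, and -0.20 for 8 fibroblast and progenitor genes. Of the fibroblast and progenitor genes, 5 were lower and 3 higher in the irradiated library, where 44.0% and 53.5% of all kept genes were. Col1a1 was the lowest at -0.44 and Thy1 the highest at 0.40. Of the mesothelial genes, Msln, Upk3b, Krt18, and Krt19 were low and were kept through the irradiated library alone. Wt1, the mesothelial gene of highest level, was lower there, with 20.4 FPKM in the sham library and 18.7 in the irradiated library. The log2 ratio of the summed mesothelial levels was 0.519. In bulk RNA, fewer cells of a type and less RNA per cell cannot be told apart. The part of these cells in the respiratory chain values was not tested.

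The respiratory chain genes were nearly level between the libraries. Among the 79 kept genes the median difference was 0.01, with quartiles of -0.035 and 0.06, whereas the 11253 genes had a median of 0.02 with quartiles of -0.08 and 0.14. The difference lay within 0.1 of 0 for 70 of the 79 genes, or 88.6%, against 50.0% of all kept genes. Of the 79, 45 were higher in the irradiated library (57.0%, against 53.5% of all genes) and 30 were lower (38.0%, against 44.0%). The summed level of all 84 genes was 5675 FPKM in the sham library and 5727 FPKM in the irradiated library, a log2 ratio of 0.013.

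By a rule of size, 0 of the 79 genes were higher by at least 1 on the log2 scale, a fold of 2, where 0.791% of all kept genes were. Cox6a2 was the only one lower by that amount, where 0.373% of all kept genes were. It had been kept through its level in the sham library alone, so its difference is in part fixed by the filter. The counting interval lay above 0 for 6 of the 79 genes (7.59%) and below 0 for 6 (7.59%), against 23.8% and 17.4% of all kept genes. The respiratory chain genes were not counted more thinly than other genes, with a median of 1303 and 1544 fragments per kept gene in the sham and irradiated libraries against 887 and 1042 over all genes. The median width of the counting interval was 0.215 for them and 0.262 over all genes. At a difference of 0.5 in place of 1, 1 gene was higher, Cox4i2, and 1 lower, Cox6a2, where 4.31% and 1.44% of all kept genes were. With a stricter filter of 5 FPKM, 92.0% of 75 respiratory chain genes lay within 0.1 of 0, against 55.8% of 7538 genes. There the interval lay above 0 for 5 and below 0 for 5 of the 75, against 24.9% and 21.7% of all genes, and 0 of the 75 passed a fold of 2, against 0.305% higher and 0.133% lower.

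**Figure D1:**
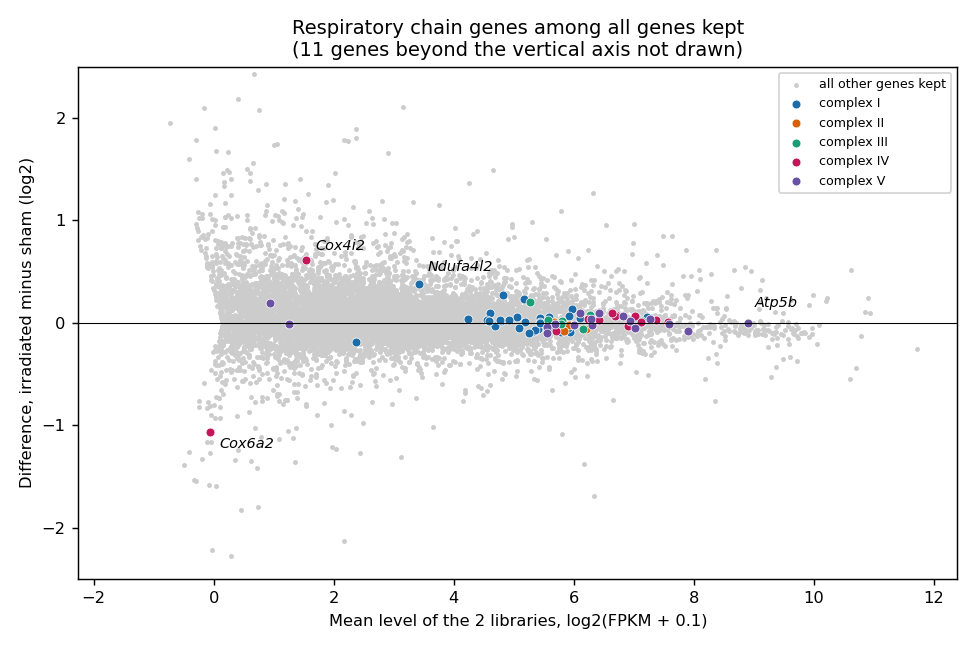
Difference between the libraries (irradiated minus sham, log2) against the mean level of each gene on the log2(FPKM + 0.1) scale, for all 11253 genes kept, in grey, and the 79 kept respiratory chain genes, coloured by complex. Most coloured points lie within 0.1 of 0, and Cox4i2, Ndufa4l2, and Cox6a2 lie apart from them at lower levels; 11 genes beyond 2.5 in either direction are not drawn.

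The medians of the complexes lay close together. The median difference was 0.01 for complex I (37 genes), -0.04 for complex II (4 genes), 0.025 for complex III (8 genes), 0.03 for complex IV (13 kept genes), and -0.01 for complex V (17 genes). All of these lay between the quartiles of all kept genes, -0.08 and 0.14. Summed over members, complex V had the highest level, at 1957 FPKM in the sham library and 1954 FPKM in the irradiated library. Complex I followed with 1609 and 1625 FPKM, complex IV with 1255 and 1283 FPKM, complex III with 610 and 625 FPKM, and complex II with 245 and 239 FPKM. These sums go by symbol. That of complex I includes Ndufa4, with 145.9 and 152.1 FPKM, and its alternative form Ndufa4l2, with 9.28 and 12.1 FPKM. Both are placed with complex IV further on, which would narrow the gap between complexes I and IV. The order of the sums was the same in both libraries, and the log2 ratio of the sums ranged from -0.04 for complex II to 0.0362 for complex III.

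Promoters are shown here because nuclear respiratory factor 1 (NRF1), ETS family factors such as GABP, YY1, and ERR-alpha are well known regulators of respiratory chain genes. Promoters of 300 bases, 250 before and 50 after the start, were taken from RefSeq on GRCm38.p6 and matched 69 of the 84 genes. The NRF1 letters, GCGC and TGCGC with any 1 base between them, read on both strands, occurred in 16 of the 69 promoters, or 23.2%, against 6.68% of 18018 genes of the table with a promoter and 11.2% of 8975 kept genes with one. The ETS letters CCGGAAG occurred in 15, or 21.7%, against 12.0% of all and 19.7% of kept genes. The YY1 letters AAGATGGCG occurred in 7, or 10.1%, against 1.98% and 3.47%. The ERR letters TCAAGGTCA occurred in 2, Sdhd and Atp5g3, or 2.9%, against 0.327% and 0.234%. The 69 include genes that were not kept. Among the 65 kept ones, the NRF1, ETS, YY1, and ERR letters occurred in 24.6%, 23.1%, 10.8%, and 3.08%, the like set for the shares of kept genes. No overlap between motifs was removed, and a match of letters is a description of the sequence, not a bound site.

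To show how these letters are placed, 1 promoter is given per complex, that of the member with the most different motifs in the 250 bases before the start, and of the highest level among ties. Capitals mark the NRF1 letters and the ETS letters, on either strand, the latter reading CTTCCGG on the other strand. The stretches are Ndufa8 at chr2:36049339-36049588, Sdhd at chr9:50603850-50604099, Uqcrh at chr4:116075071-116075320, Cox6a1 at chr5:115348959-115349208, and Atp5h at chr11:115419920-115420169. All 5 are on the minus strand of GRCm38.p6 and are written 5′ to 3′.
Ndufa8: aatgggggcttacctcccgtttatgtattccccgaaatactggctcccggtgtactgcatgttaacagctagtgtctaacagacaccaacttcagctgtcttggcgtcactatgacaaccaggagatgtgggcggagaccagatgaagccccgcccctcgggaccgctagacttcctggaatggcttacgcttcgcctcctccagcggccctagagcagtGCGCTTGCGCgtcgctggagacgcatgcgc
Sdhd: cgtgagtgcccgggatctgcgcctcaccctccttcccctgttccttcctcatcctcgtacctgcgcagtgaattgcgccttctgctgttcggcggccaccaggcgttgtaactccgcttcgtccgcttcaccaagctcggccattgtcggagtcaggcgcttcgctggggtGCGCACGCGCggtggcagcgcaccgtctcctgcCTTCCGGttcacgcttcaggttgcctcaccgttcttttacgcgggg
Uqcrh: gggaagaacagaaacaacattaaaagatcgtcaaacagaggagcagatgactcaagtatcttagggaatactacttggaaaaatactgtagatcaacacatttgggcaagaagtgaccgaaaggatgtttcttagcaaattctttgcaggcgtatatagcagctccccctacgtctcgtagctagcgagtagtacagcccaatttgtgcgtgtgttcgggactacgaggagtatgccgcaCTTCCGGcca
Cox6a1: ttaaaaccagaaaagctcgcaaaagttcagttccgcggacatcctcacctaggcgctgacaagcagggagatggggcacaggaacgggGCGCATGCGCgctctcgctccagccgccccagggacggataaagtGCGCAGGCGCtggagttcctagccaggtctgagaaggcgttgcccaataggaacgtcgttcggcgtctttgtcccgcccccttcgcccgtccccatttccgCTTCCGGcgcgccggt
Atp5h: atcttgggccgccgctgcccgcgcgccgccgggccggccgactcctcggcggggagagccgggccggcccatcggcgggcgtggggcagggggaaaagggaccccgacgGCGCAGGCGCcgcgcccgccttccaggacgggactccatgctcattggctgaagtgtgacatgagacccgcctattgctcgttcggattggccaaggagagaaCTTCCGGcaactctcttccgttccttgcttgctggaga
Sdhd, Cox6a1, and Atp5h hold both kinds of letters in these stretches, and their differences were -0.08, 0.07, and 0.04. Ndufa8 holds NRF1 letters and had a difference of 0.13, and Uqcrh holds ETS letters and had 0.06. The ERR letters of Sdhd lie beyond the stretch shown. A link between these letters and the differences was not tested.

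Complex I takes electrons from NADH in an arm that reaches into the matrix and pumps protons in an arm within the membrane. Its 7 nuclear-coded core subunits include those that carry the flavin and the iron-sulfur centres. Of the 7, 2 were higher, 4 lower, and 1 equal in the irradiated library, with a median difference of -0.03. Ndufv1, the subunit that binds NADH, had 39.3 FPKM in the sham library and 36.7 FPKM in the irradiated library, a difference of -0.10 with a counting interval from -0.191 to -0.010. It was the only core subunit whose interval did not include 0, and widening the interval by the rounding error of 0.01 made it include 0.

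Accessory subunits surround this core. The 9 of the matrix arm had a median difference of -0.05, with 4 higher and 5 lower, and each counting interval included 0. The 19 of the membrane arm had a median of 0.03, with 13 higher, 4 lower, and 2 equal. Over all kept genes, 53.5% were higher and 44.0% lower. The core and accessory subunits of the matrix arm had a median of -0.04 over 16 genes, with 6 higher and 9 lower. The summed level of the matrix arm was 651 FPKM in the sham and 635 FPKM in the irradiated library, and that of the accessory membrane arm was 803 FPKM and 826 FPKM. The sums of the arms thus differed in opposite directions, by -0.0358 and 0.0416 on the log2 scale, and with 1 library per condition the difference between them was not tested.

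The largest differences of complex I, other than that of Ndufa4l2 described further on, were in the membrane arm. Ndufb2, on chromosome 6 from 39592583 to 39599471, had 25.5 FPKM in the sham library and 30.8 FPKM in the irradiated library, on 352 and 486 fragments. Its difference was 0.27 with a counting interval from 0.070 to 0.472. Ndufa1, on the X chromosome from 37187589 to 37191238, had 33.3 FPKM and 39.0 FPKM, a difference of 0.23 with an interval from 0.061 to 0.401. Both are small accessory proteins of the membrane arm. The listed span of Ndufa1 shares 17 bases with Rnf113a1 on the other strand, whose difference was -0.25 with an interval from -0.707 to 0.184 that included 0.

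Ndufa8, an accessory subunit facing the intermembrane space, had 60.03 FPKM in the sham and 65.7 FPKM in the irradiated library, a difference of 0.13 with an interval from 0.026 to 0.234. On the other side, Ndufa11 had 5.44 FPKM and 4.76 FPKM, a difference of -0.19 with an interval from -0.363 to -0.022. Ndufa11 was the lowest of all constitutive subunits in level, with a listed length of 3.393 kb. Ndufa10 and Ndufa12 both had a difference of -0.09, and the interval of Ndufa10, from -0.177 to -0.003, lay just below 0 and included it once widened by the rounding error. All of these differences were smaller than 0.3, and the other complex I genes lay between them.

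**Figure D2:**
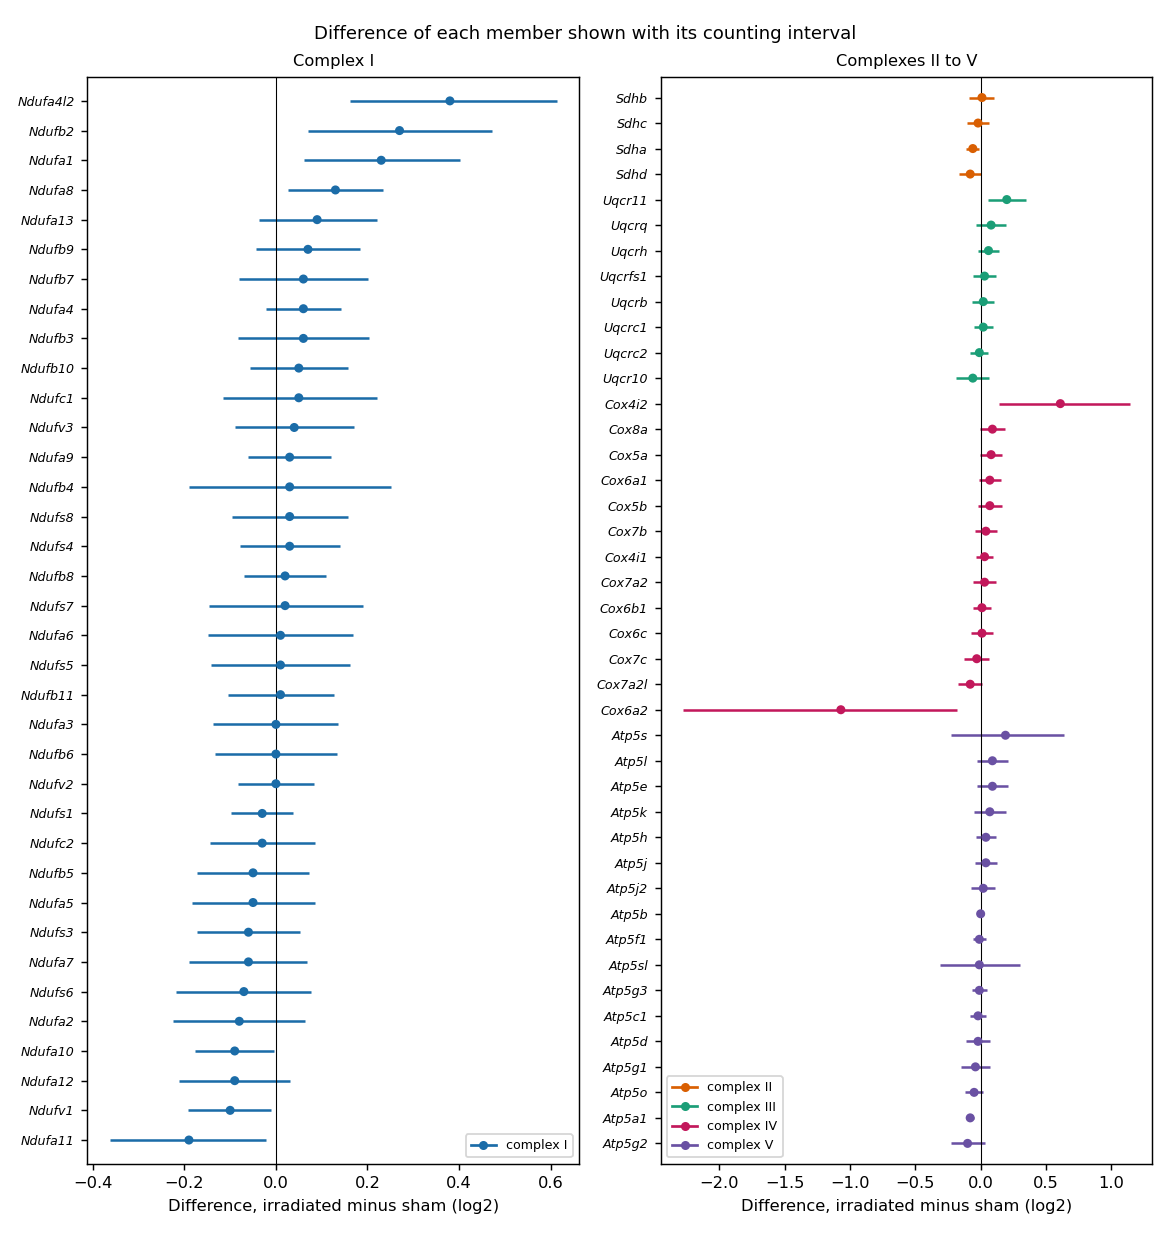
Difference of 78 kept respiratory chain genes (irradiated minus sham, log2, points on the log2(FPKM + 0.1) scale) with the exact 95% counting interval of the fragment ratio (lines), with complex I on the left and complexes II to V on the right. Of the 78 intervals drawn, 66 include 0, and the widest belong to Cox6a2, Cox4i2, and Atp5s, which have the fewest fragments.

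Complex II, succinate dehydrogenase, also belongs to the tricarboxylic acid cycle. Sdha, its flavoprotein, on chromosome 13 from 74322255 to 74350240, had 75.0 FPKM in the sham library and 71.9 FPKM in the irradiated library. The difference was -0.06 with an interval from -0.109 to -0.011, on 6518 and 7157 fragments. Sdhb, the iron-sulfur subunit, had 50.8 FPKM and 51.2 FPKM, a difference of 0.01. The membrane anchors Sdhc and Sdhd had differences of -0.02 and -0.08, from 60.9 FPKM to 60.03 FPKM and from 58.8 FPKM to 55.6 FPKM. The 4 genes therefore stood within a narrow band of levels, from 50.8 to 75.0 FPKM, and 3 of the 4 were lower in the irradiated library.

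Complex III passes electrons from ubiquinol to cytochrome c. Its core proteins Uqcrc1 and Uqcrc2 and the Rieske iron-sulfur protein Uqcrfs1 had differences of 0.02, -0.01, and 0.03, and each interval included 0. Uqcr11, a small subunit on chromosome 10 from 80402997 to 80406821, had 35.9 FPKM in the sham library and 41.3 FPKM in the irradiated library. Its difference of 0.20, with an interval from 0.057 to 0.346, was the only one of the complex whose interval did not include 0. The next highest were Uqcrq at 0.08 and Uqcrh at 0.06, and Uqcr10 was the lowest at -0.06. Uqcrb had the highest mean level of the complex, with 139.97 FPKM and 141.9 FPKM, and Uqcr11 the lowest.

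Complex IV, cytochrome c oxidase, reduces oxygen to water. Ndufa4 carries a complex I name but is now counted as a subunit of complex IV, and it had the highest mean level of the genes with a complex I name, at 145.9 FPKM in the sham and 152.1 FPKM in the irradiated library. With Ndufa4, the 11 widely expressed nuclear subunits of complex IV ranged from 73.9 to 189.9 FPKM. Of the 11, 10 were higher in the irradiated library, where 53.5% of all kept genes were. Among these, Cox6b1 and Cox6c differed by only 0.01, the size of the rounding error. The median difference of the 11 was 0.04, against 0.02 over all kept genes. The highest was Cox8a at 0.09, followed by Cox5a at 0.08, and the lowest was Cox7c at -0.03. Each of the 11 counting intervals included 0. Cox6b1 had the highest mean level of the genes with a complex IV name, at 188.6 FPKM and 189.9 FPKM. Cox7a2l, which helps to join complexes III and IV into supercomplexes, had 53.3 FPKM and 50.5 FPKM, a difference of -0.08.

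Complex V, ATP synthase, contained the most abundant transcript of the chain. Atp5b, the catalytic beta subunit, on chromosome 10 from 128083307 to 128090388, had 480.9 FPKM in both libraries, on 27483 and 31460 fragments. Its difference was 0.00 with an interval from -0.023 to 0.023, the narrowest interval of the set, and 87 genes of the table had a higher mean FPKM. Atp5a1, the alpha subunit that alternates with beta in the F1 head, had 245.5 FPKM and 232.2 FPKM, a difference of -0.08 with an interval from -0.109 to -0.051. The gamma, delta, and epsilon subunits of the central stalk, Atp5c1, Atp5d, and Atp5e, had differences of -0.02, -0.02, and 0.09. Alpha and beta occur in equal number in the enzyme, whereas the transcript level of Atp5b stood well above that of Atp5a1 in both libraries.

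The remaining parts of ATP synthase were level as well. The 4 peripheral stalk genes ranged from -0.05 (Atp5o) to 0.04 (Atp5h and Atp5j), and the 3 membrane accessory genes Atp5j2, Atp5k, and Atp5l had 0.02, 0.07, and 0.09. The 3 genes Atp5g1, Atp5g2, and Atp5g3 code for the same mature c subunit, which forms the rotating ring in the membrane. Atp5g3 supplied 66.9% of their summed FPKM in the sham library and 67.8% in the irradiated library, with exact binomial intervals from 65.7% to 68.0% and from 66.7% to 68.8%. Atp5g1 supplied 16.5% and 16.3%, and Atp5g2 16.7% and 15.9%. The intervals of each gene overlapped between the libraries, and the differences of the 3 genes were -0.04, -0.10, and -0.01. Atp5s and Atp5sl, related factors outside the enzyme, stood at 1.70 and 2.30 FPKM in the sham library and 1.96 and 2.28 FPKM in the irradiated library, far below the subunits. Their differences were 0.19 and -0.01, and both intervals included 0.

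The differences that stood apart were those of alternative forms of complex IV subunits, which replace the widely expressed form in particular tissues or states. The list held 8 such genes in the table, of which 3 were kept, and these 3 had the largest differences in size of all 79 kept genes. This order depends in part on the filter, since Cox6a2 was kept through the sham library alone and the forms below 1 FPKM in both libraries were left out. Cox4i2, the alternative form of subunit 4, known from lung and from cells short of oxygen, lies on chromosome 2 from 152754173 to 152765037. It had 2.26 FPKM in the sham library and 3.51 FPKM in the irradiated library, on 54 and 96 fragments. The difference was 0.61, with a counting interval from 0.139 to 1.144. Cox4i1, the widely expressed form, had 164.2 FPKM and 167.6 FPKM, so Cox4i2 made up 1.36% (interval 1.02% to 1.76%) of the pair in the sham library and 2.05% (1.66% to 2.49%) in the irradiated library. Both shares were small, and their intervals overlapped.

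As listed, the span of Cox4i2 shares 6306 bases with that of Bcl2l1, a survival gene on the other strand. Bcl2l1 had 9.61 FPKM in the sham library and 14.1 FPKM in the irradiated library, a difference of 0.55 with an interval from 0.457 to 0.653. The genes thus stood higher in the same library by similar amounts. The library preparation was stranded, but the labels do not say whether the counting used strand, so fragments of the pair may not be separable and the part of Bcl2l1 in the Cox4i2 value was not tested.

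Ndufa4l2, the alternative form of Ndufa4 and a known target of hypoxia-inducible factor, lies on chromosome 10 from 127514939 to 127517156. It had 9.28 FPKM in the sham library and 12.1 FPKM in the irradiated library, on 272 and 407 fragments, a difference of 0.38 with an interval from 0.161 to 0.613. Its share of the pair with Ndufa4 was 5.98% (5.28% to 6.72%) and 7.37% (6.68% to 8.13%), the largest share of any alternative form. The intervals of these shares just overlapped. The neighbouring gene Shmt2, which shares 34 bases with it on the other strand, was lower in the irradiated library by 0.45 and so differed the other way.

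Cox6a2, the form of heart and skeletal muscle, lies on chromosome 7 from 128205435 to 128206366. It had 1.30 FPKM in the sham library and 0.564 FPKM in the irradiated library, on only 26 and 13 fragments, a difference of -1.07 with an interval from -2.279 to -0.182. Its share of the pair with Cox6a1 was 1.01% (0.661% to 1.48%) and 0.422% (0.225% to 0.722%). Of 8 striated muscle markers, 3 were kept, Ckm and Myh4 had 0 fragments in both libraries, and the 3 kept ones differed in both directions. Acta1 had 0.564 FPKM and 2.01 FPKM, a difference of 1.67, whereas Actn3 and Mylpf had differences of -0.14 and -0.29 with intervals that included 0. Acta1 was kept through the irradiated library alone and Mylpf through the sham library alone, so their directions are in part fixed by the filter. The part of muscle cells in the Cox6a2 value was not tested.

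The other alternative forms were at or near the limit of detection. Cox7a1, the muscle and brown fat form, had 0.542 FPKM in the sham library and 0.712 FPKM in the irradiated library, on 6 and 9 fragments, and Cox6b2, the testis form, had 0.107 and 0.279 FPKM, on 2 and 6 fragments. Both counting intervals included 0, from -1.263 to 2.162 and from -1.093 to 4.731. Cox7b2, Cox8b, and Cox8c had 0 fragments in both libraries. For Cox8b, the muscle and brown fat form, a count of 0 allows up to 3 fragments, or 0.187% of the fragments of the pair with Cox8a in the sham library and 0.153% in the irradiated library. Cox8b, like Ucp1, was thus not detected at this depth in either library.

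**Figure D3:**
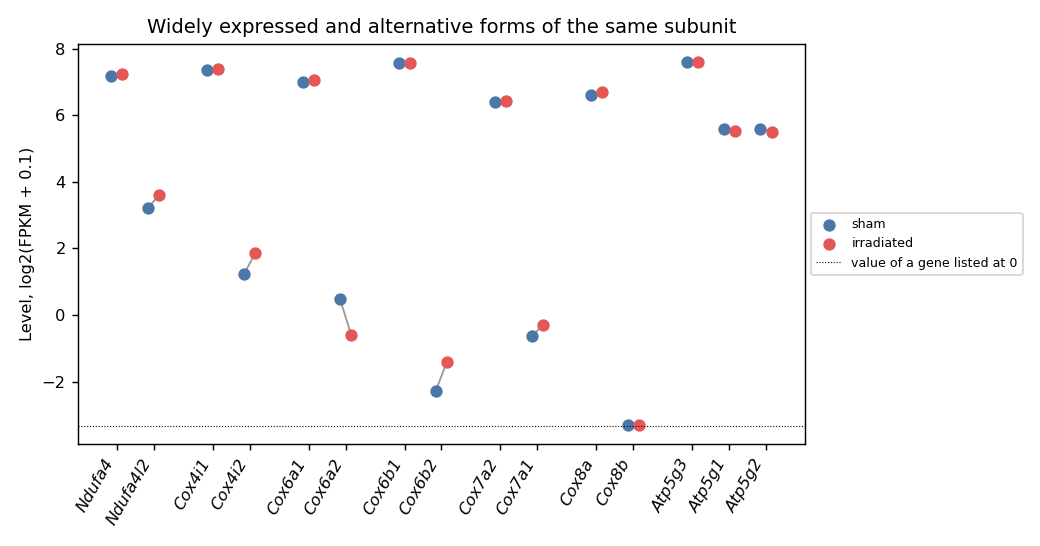
Deposited level, log2(FPKM + 0.1), of the widely expressed and the alternative forms of 6 subunits and of the 3 genes of the ATP synthase c subunit, with the sham library in blue and the irradiated library in red. The widely expressed forms lie above 6 and level between the libraries, while Cox4i2 and Ndufa4l2 lie higher and Cox6a2 lower in the irradiated library. Cox6b2, on 2 and 6 fragments, and Cox7a1, on 6 and 9 fragments, also lie higher there, with counting intervals that include 0.

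Cox4i2 and Ndufa4l2 are also known from mural cells, the pericytes and smooth muscle cells around vessels, and as genes induced by low oxygen. A list of 12 mural cell markers and a list of 14 hypoxia-induced genes were therefore drawn up after these values were seen, so they are given as description. Of the 12 mural cell markers, 10 were kept, 9 were higher in the irradiated library, and 1 was lower, with a median of 0.245. Over all kept genes, 53.5% were higher and 44.0% lower, with a median of 0.02. The counting interval lay above 0 for 7 and below 0 for 1 of the 10, against 23.8% and 17.4% of all kept genes. The summed level of the listed markers was 160.0 FPKM in the sham library and 170.2 FPKM in the irradiated library. Most of it came from Pdgfrb, at 93.6 and 89.2 FPKM, which fibroblasts also express. Rgs5 had 10.6 and 12.6 FPKM, Kcnj8 2.38 and 3.33 FPKM, Abcc9 1.70 and 2.43 FPKM, and Cspg4 0.795 and 1.35 FPKM, while Higd1b had only 1 and 6 fragments. Cspg4 was kept through its level in the irradiated library alone, so its difference is in part fixed by the filter. The part of mural cells in the Cox4i2 and Ndufa4l2 values was not tested.

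The 14 hypoxia-induced genes had a median difference of -0.025, with 6 higher, 7 lower, and 1 equal. Car9 was higher in the irradiated library, at 1.23 FPKM against 0.403 FPKM, whereas Pdk1 and Bnip3 were both lower, by 0.43 each. Car9 was kept through its level in the irradiated library alone, so its difference is in part fixed by the filter. The counting interval lay above 0 for 4 and below 0 for 4 of the 14, where 23.8% and 17.4% of all kept genes had such intervals. The part of low oxygen in the Cox4i2 and Ndufa4l2 values was not tested.

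Among the constitutive subunits, shorter genes more often stood higher in the irradiated library. The 73 constitutive subunits leave out the alternative forms, Cox7a2l, Atp5s, and Atp5sl. Their difference was inversely related to the logarithm of the listed length, with Pearson's r = -0.391 and Spearman's rho = -0.373 across genes. Over all 11253 genes the values were -0.006 and -0.021. These genes come from the same pair of libraries and are not independent replicates, so no p-value is given. Of 50 constitutive subunits shorter than 1 kb, 33 (66.0%) were higher in the irradiated library. The same was true of 9 (39.1%) of the 23 that were 1 kb or longer. Over all kept genes the share was 53.9% for 744 genes shorter than 1 kb and 53.5% for 10509 longer ones. The median differences were 0.025 for the short and -0.01 for the long constitutive subunits. The part of length in these small differences was not tested.

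**Figure D4:**
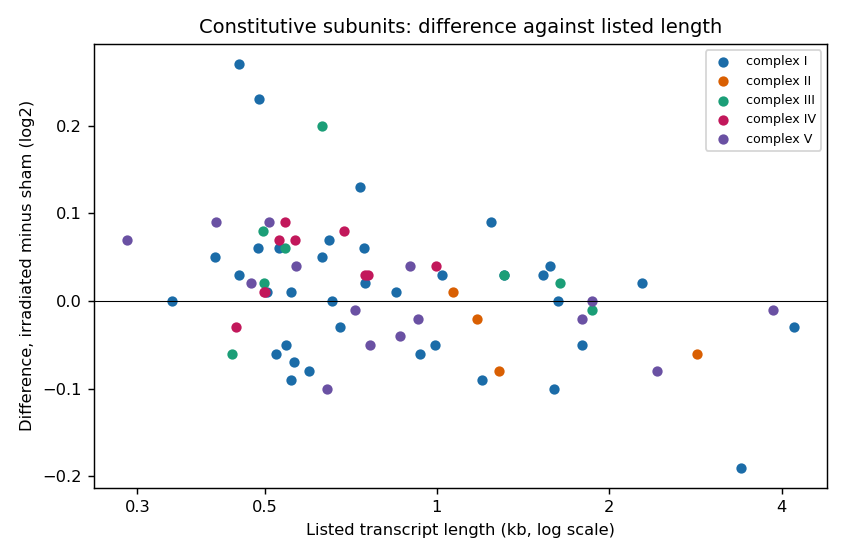
Difference between the libraries (irradiated minus sham, log2) against listed length in kb on a log axis for the 73 constitutive subunits, coloured by complex. Ndufb2, Ndufa1, and Uqcr11 are the highest points and are shorter than 1 kb, and Ndufa11, listed at 3.393 kb, is the lowest.

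The chain depends on many further genes, which were taken from fixed lists. The 4 subunits that the symbols above leave out had differences from -0.09 for Cyc1, the cytochrome c1 of complex III, to 0.15 for Ndufab1, the acyl carrier protein of complex I. Of 8 genes for cytochrome c and carriers, 5 were higher and 3 lower, with Gpd2, the mitochondrial glycerol phosphate dehydrogenase, the highest at 0.20 and Slc25a5, an ADP/ATP carrier, the lowest at -0.10. The counting interval lay above 0 for 3 and below 0 for 1 of the 8, where 23.8% and 17.4% of all kept genes had such intervals.

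Assembly factors help to join the subunits and are not part of the finished complexes. Complex I factors had a median of 0.01 over 15 genes at a median level of 7.47 FPKM in the sham library, from Ndufaf8 at -0.19 to Ndufaf3 at 0.34, and 53.3% lay within 0.1 of 0, near the 50.0% of all kept genes. Complex IV factors had a median of -0.02 over 21 kept genes, from Cox10, a heme A synthesis enzyme, at -0.29 to Pet100 at 0.40. The 4 complex II factors ranged from -0.23 (Sdhaf3) to 0.34 (Sdhaf1), the 5 kept complex III factors from -0.05 (Ttc19) to 0.20 (Uqcc2), and the 5 genes of complex V assembly and regulation from -0.01 (Atpif1) to 0.35 (Atpaf1). The counting intervals lay above 0 for Sdhaf1, Uqcc2, Pet100, and Atpaf1 and below 0 for Acad9, Cox10, and Higd1a. Over all kept genes, 23.8% had an interval above 0 and 17.4% one below 0.

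Regulators of mitochondrial content had a median of 0.00 over 15 kept genes, with 7 higher and 7 lower, where 53.5% and 44.0% of all kept genes were. The counting interval lay above 0 for 2 and below 0 for 1 of the 15, against 23.8% and 17.4% of all kept genes. Polg2, a subunit of the mitochondrial DNA polymerase, was the highest at 0.27, with an interval that included 0, and Gabpa, an ETS factor, the lowest at -0.14, with an interval from -0.210 to -0.072. Esrra, which codes for ERR-alpha, had 0.26 with an interval from 0.057 to 0.480. The intervals of Nrf1, Tfam, and Yy1, with differences of -0.08, 0.00, and -0.07, included 0. Polg, the catalytic subunit of that polymerase, was the other gene with an interval above 0, at 0.11. Ppargc1a, the coactivator of mitochondrial biogenesis, had 0.135 FPKM in the sham library and 0.083 FPKM in the irradiated library, on 27 and 19 fragments, with an interval from -1.630 to 0.198 that included 0. The 13 tricarboxylic acid cycle genes had a median of -0.01, from -0.10 for Suclg1 and Suclg2 to 0.11 for Idh3a. The 77 kept genes of the mitochondrial ribosome had a median of 0.01, from Mrps28 at -0.25 to Mrps6 at 0.35.

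Glycolysis and the cytosolic ribosome served as comparisons. The 19 kept glycolysis and lactate genes had a median of -0.02, from Slc16a1, a lactate carrier, at -0.49 to Eno2 at 0.22, and the counting interval lay below 0 for 9 and above 0 for 3, where 17.4% and 23.8% of all kept genes had such intervals. Within 0.1 of 0 lay 52.6% of them, against 88.6% of the respiratory chain genes. The share was 92.3% for the tricarboxylic acid cycle genes and 76.6% for the mitochondrial ribosome genes. Being nearly level was thus not particular to the respiratory chain. The 89 kept genes named Rpl or Rps, which are also short and abundant, had a median of -0.07, with 10 higher and 76 lower, where 53.5% and 44.0% of all kept genes were. The pattern also takes in S6 kinases, and the 82 genes other than these kinases also had a median of -0.07. The respiratory chain genes thus did not share the lower values of the cytosolic ribosome, and this contrast between lists was not tested.

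**Figure D5:**
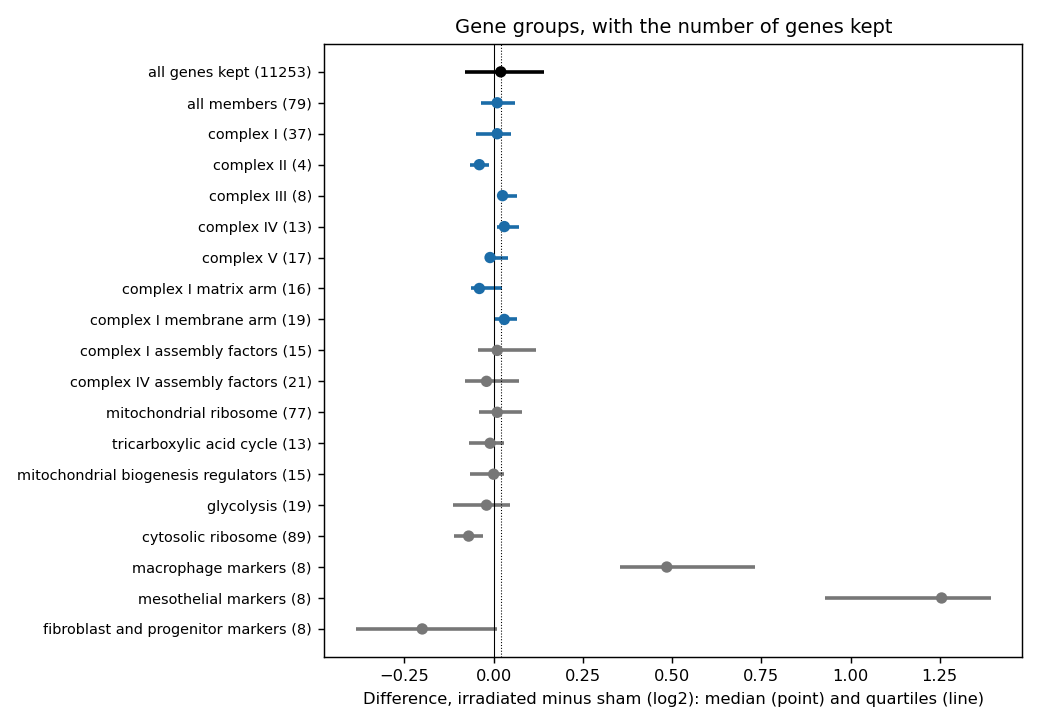
Median (points) and quartiles (lines) of the difference between the libraries (irradiated minus sham, log2) for each gene group, with the number of kept genes in brackets, all genes in black, respiratory chain groups in blue, and other lists in grey; the dotted line marks the median of all genes, 0.02. The respiratory chain groups lie close to 0 with short lines, as do the tricarboxylic acid cycle genes. The macrophage and mesothelial markers lie higher at 0.485 and 1.255. Of the mesothelial markers, Msln, Upk3b, Krt18, and Krt19 were kept through the irradiated library alone.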

How the data were processed

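Polyadenylated RNA of 1 sham-irradiated and 1 irradiated sample was sequenced from a stranded library preparation. The authors deposited 1 table of log2 values with listed gene lengths for 24091 genes, and mm10 is named in the submitters' processing notes. The aligner, the counting tool, and its strand setting were not given in the sources used here. The deposited log2 values were read as log2(FPKM + 0.1) rounded to 2 decimals, and they were first returned to FPKM. Values of genes with at most 20 fragments fell on steps of whole fragments within 0.12 (2567 of 2567 genes in the sham-irradiated and 2515 of 2515 in the irradiated library). From these steps the totals of 30575000 and 34999000 fragments and the fragments per gene were recovered. A gene of 1 kb with 3 fragments had an FPKM of 0.0981 and 0.0857, respectively, which was taken as the floor.

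Samples were grouped by the treatment named in the labels. The difference was the deposited value of the irradiated minus that of the sham-irradiated library, and exact 95% binomial intervals of the fragment ratio were computed. Genes that reached an FPKM of 1 in either library were kept. The recovery and the intervals were tested on simulated data. With 1 library per group no test was possible. The text names every member past a difference of 1 or not kept, the Sdh genes, alternative forms, and c ring genes, the 3 highest and 3 lowest differences and the highest level of each other complex, the extremes of each list, and 4 cell markers. A single item is not reported here by name and is not drawn among the single genes. Genes named beyond these were chosen after their values were seen. The members and lists were chosen with earlier results of these data known, and the mural cell and hypoxia lists and the promoter letters were added after the values were seen. Promoter sequences were from RefSeq (GRCm38.p6), whose entries matched 69 of the 84 genes. Genes on chromosome 18 were left out of the promoters shown. The alternatives were a filter of 5 FPKM, log2(FPKM + 1), centring, scaling without the top 100 genes, removal of a length trend, the mean in place of the median, a threshold of 0.5, and shares of fragments not divided by length. Tools were SciPy 1.17.1, pandas 2.3.3, and numpy 2.4.6 under Python 3.11.15, with matplotlib 3.10.9 for the plots.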

Additional observations from a re-analysis of the deposited data

How the results depend on the processing

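No paired analysis was possible because each group had 1 library, and for the same reason no replicate could be left out. Centring on the median of all genes (0.02), scaling without the 100 most abundant genes, and removing a length trend moved the median of the respiratory chain genes from 0.01 to -0.01, -0.0066, and -0.01, respectively. The median of complex I moved from 0.01 to the same values, and that of complex V from -0.01 to -0.03, -0.0266, and -0.03. By construction these steps subtract a shift, and the sign of so small a median is therefore not fixed by these data. The mean in place of the median also changed the sign for complex IV, from 0.03 to -0.0108, and for complex V, from -0.01 to 0.0118. Centring moved the log2 ratio of the sums from 0.0148 to -0.0052 for complex I and from -0.0018 to -0.0218 for complex V, and scaling gave -0.0184 for complex V. A threshold of 0.5 gave 1 gene higher, Cox4i2. The 1 gene lower by a fold of 2, Cox6a2, became 0 on the log2(FPKM + 1) scale and 0 with a filter of 5 FPKM, since its level was low. The count of genes with an interval above 0 was 6, or 5 with the filter of 5 FPKM. The count below 0 was 6, against 9 after centring, 8 after scaling, 5 with the filter, and 4 when the intervals were widened for rounding, which ended the calls of Ndufv1 and Ndufa10, a choice made after seeing the data. Without dividing by length, the share of Ndufa4l2 was 11.1% in the sham and 13.5% in the irradiated library, that of Atp5g1 19.5% and 19.3%, and that of Atp5g2 14.7% and 14.0%, because the genes differ in length. The counting intervals do not hold the spread between mice, cultures, or library preparations, which cannot be told apart from the treatment here.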
